A study of Mus musculus with 39 samples.

Results

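The enzymes described here conjugate glutathione or remove superoxide and peroxides. They are the genes whose symbols name an alpha, kappa, mu, omega, pi, theta or zeta glutathione transferase, a glutathione peroxidase (Gpx), a peroxiredoxin (Prdx), a superoxide dismutase (Sod1 to Sod3) or catalase (Cat). The rule found 40 genes in the first of 2 count tables, and all 40 had the same Ensembl identifier in the second, among 21561 identifiers that both tables list. The rule reads gene names and uses no measured value. They comprise 4 alpha (Gsta), 7 mu (Gstm), 3 pi (Gstp), 4 theta (Gstt), 2 omega (Gsto), 1 kappa (Gstk1) and 1 zeta (Gstz1) transferase, 8 glutathione peroxidases, 6 peroxiredoxins, 3 superoxide dismutases and catalase.

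RNA-seq was done on whole testis and on gubernaculum, the cord of muscle and mesenchyme that guides the fetal testis towards the scrotum. All mice were male C57BL/6J, untreated, and aged 8, 23 or 40 days after birth (P8, P23, P40). WT mice carried mouse Insl3, the gene for the Leydig cell hormone that acts on the gubernaculum. In INSL3-KI mice the mouse coding sequence was replaced at its own locus by the cDNA of cetacean (minke whale) INSL3. INSL3-KI mice were homozygous and lacked the selection cassette. INSL3-KO mice lacked INSL3 by labelling, and how they were made is not described in the sources used here. In mature mice the paper reports testes in the groin for INSL3-KI and near the kidney for INSL3-KO, against the scrotum for WT. Where testis position differs with genotype, hormone and position cannot be told apart. Gubernaculum of all 3 genotypes was sampled at P8, and of WT and INSL3-KI at P23. Testis of all 3 genotypes was sampled at P8 and P23, and of WT and INSL3-KI at P40. Each of the 13 groups held 3 libraries labelled as biological replicates, so p-values here measure the spread between those libraries.

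Superoxide dismutases turn superoxide into hydrogen peroxide. Catalase, glutathione peroxidases and peroxiredoxins remove the peroxide, and most peroxiredoxins do so with electrons from thioredoxin. Glutathione transferases join glutathione to reactive lipids and xenobiotics. Developing sperm are rich in polyunsaturated membrane lipids, and they use Gpx4, a selenoprotein that reduces lipid hydroperoxides, also as a structural protein of the sperm midpiece.

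The 39 libraries held 29861447 to 45260372 counts, of which 94.16% to 97.86% fell on identifiers shared by the tables. The second table holds all INSL3-KO libraries and the P23 WT testis libraries, and the first holds the rest. Replicate libraries of the second table lay closer together. The median coefficient of variation per group was 4.3% to 5.1% in the second table. It ran from 7.0% (P40 WT testis) to 24.3% (P23 INSL3-KI testis) in the first. Adjusted p-values and numbers of calls therefore do not rank the size of changes between comparisons. In 6 comparisons the groups therefore came from different tables, where genotype and table cannot be told apart, and these are marked below. Mouse Insl3 in testis was at 110.2 to 1100 FPKM (fragments scaled to gene length and library size) in WT, at 0.684 to 22.03 FPKM in INSL3-KI and at 0 to 0.1798 FPKM in P23 INSL3-KO libraries. The 3 P8 testis libraries labelled INSL3-KO held 33.48, 33.23 and 25.06 FPKM of Insl3, against 131.0, 138.8 and 110.2 FPKM in P8 WT, so their label was only partly borne out. The tissue labels of the WT libraries were borne out by markers. Summed FPKM of 10 skeletal muscle genes was 14419 to 50295 in WT gubernaculum and 6.27 to 25.8 in WT testis. Summed FPKM of 15 Sertoli cell genes, which mark the supporting cells of the seminiferous tubule, was 822 to 3847 in WT testis and 210 to 295 in WT gubernaculum. Mutant gubernaculum was less clearly marked. Its muscle genes summed to 568 to 995 FPKM in P8 INSL3-KI and 4630 to 5047 FPKM in P8 INSL3-KO. In P23 INSL3-KI they summed to 16.4 to 612 FPKM. The Sertoli cell genes of these groups summed to 739 to 1850, 836 to 1621 and 804 to 1328 FPKM. These ranges overlapped P23 (987 to 1017 FPKM) and P40 (822 to 979 FPKM) WT testis but lay below P8 WT testis (2860 to 3847 FPKM). Fshr, a gene of this list, had 0 counts in P8 and P23 INSL3-KI and in P23 WT gubernaculum.

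Levels between genes are compared on the FPKM scale. In P8 WT testis 34 of the 40 members averaged at least 1 FPKM, and the highest were Gstm1, Gstm2, Gstm6, Sod1 and Prdx2. In P40 WT testis the same number, 34, passed 1 FPKM, but the order was led by Gstm5, Gpx4, Gstm1, Gstt4 and Sod1. In P8 WT gubernaculum 30 members passed 1 FPKM, led by Gpx4, Sod1, Prdx2, Gpx1 and Gstp1. The summed level of all 40 genes was 1518, 1216 and 1173 FPKM in the P8 WT gubernaculum libraries and 4117, 4280 and 3716 FPKM in P8 WT testis. It was 7087, 7241 and 6838 FPKM in P23 INSL3-KO testis, above the 4760, 4885 and 4885 FPKM of P23 WT testis. Gpx2, the peroxidase of the gut lining, had at most 10 counts in any library and was tested in no comparison.

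**Figure D1:**
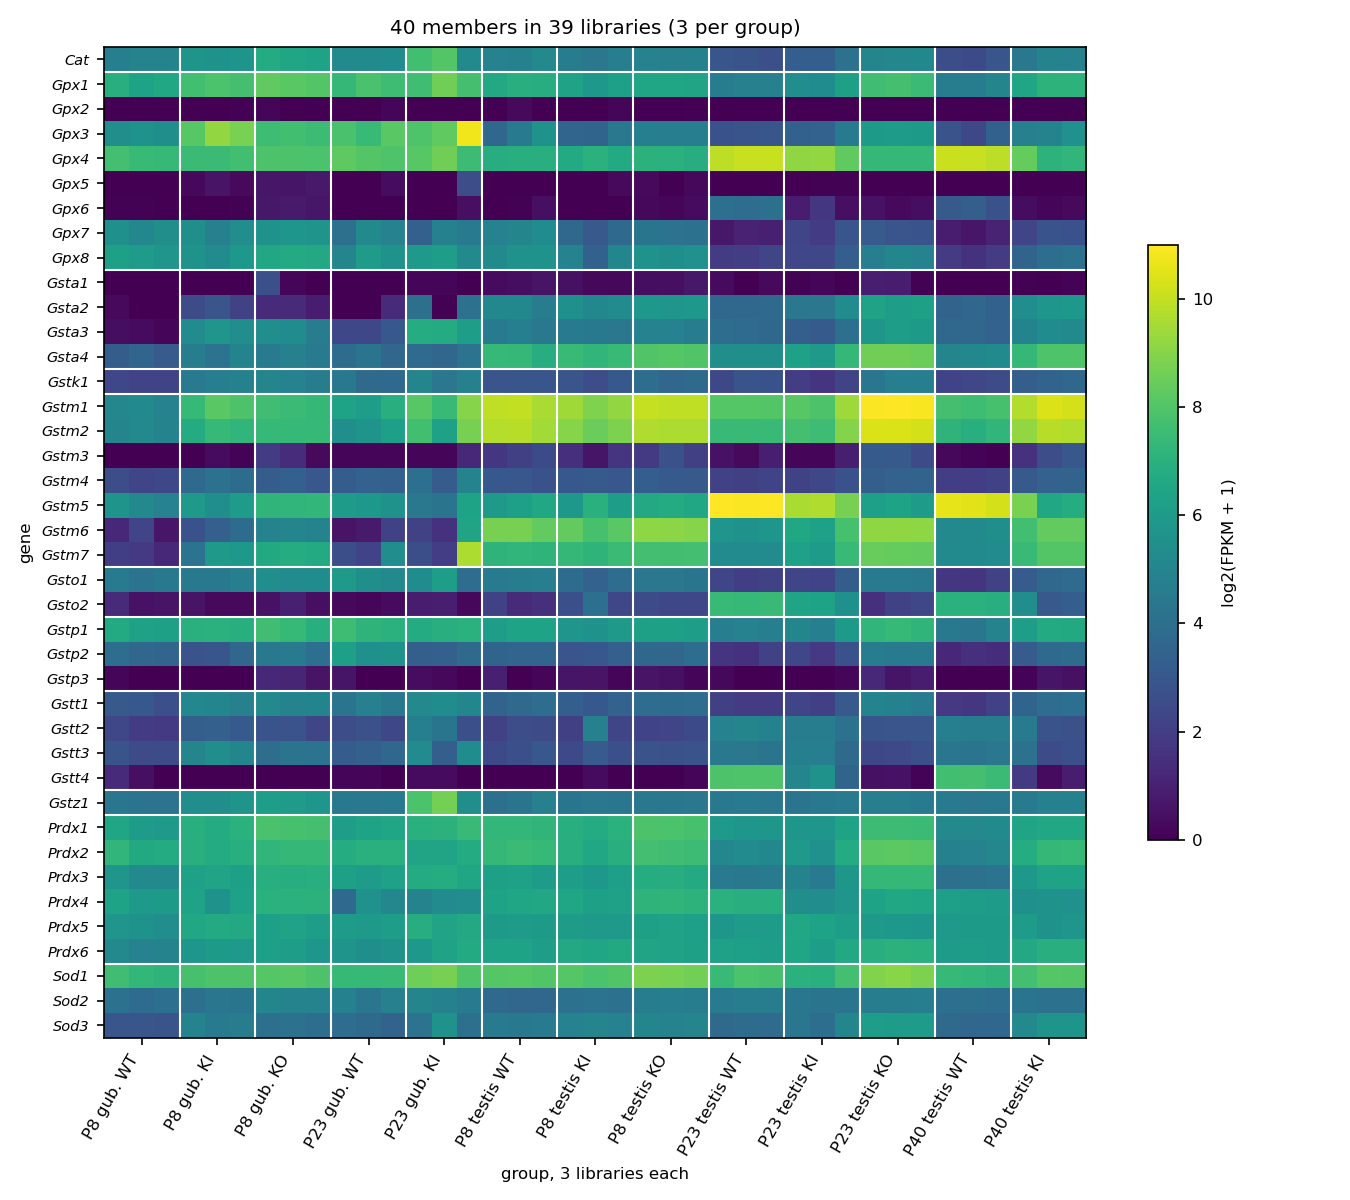
Level of each of the 40 genes (vertical axis, grouped by family) in each of the 39 libraries (horizontal axis, 3 per group), coloured by log2(FPKM + 1). Gstm5, Gpx4, Gsto2 and Gstt4 are bright in P23 and P40 WT testis and dim in P23 INSL3-KO testis, while Gstm1, Gstm2 and Gstm6 are brighter in P23 INSL3-KO than in P23 and P40 WT testis on this scale of all fragments.

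Several members lie side by side in the genome, and neighbours differed in their timing in testis. On chromosome 3 the 7 mu transferases lie in the order Gstm5, Gstm7, Gstm6, Gstm3, Gstm2, Gstm1 and Gstm4, with Gstm5 on the plus strand 27648 bases from Gstm7 and the others on the minus strand. On chromosome 10 the order is Gstt3, Gstt1, Gstt4 and Gstt2, and on chromosome 19 Gsto2 starts 744 bases after Gsto1 ends. The sequences upstream of 5 of these genes are shown because Gsto2 and Gstm5 rose with age in WT testis while their neighbours Gsto1 and Gstm7 fell with TMM scaling (with libraries scaled on Sertoli cell genes these neighbours were at -0.93 and 0.31 on the log2 scale and not called), and because Gstt4 had no count in P8 WT testis. They are RefSeq promoter windows of build GRCm38.p6, up to 250 bases that end just before the gene's start, printed 5′ to 3′ on the gene's strand. Positions are chr19:47865295-47865533 (plus) for Gsto2, chr19:47854723-47854969 (plus) for Gsto1, chr3:107895604-107895820 (plus) for Gstm5, chr3:107931818-107932067 (minus) for Gstm7 and chr10:75822544-75822793 (minus) for Gstt4. Capitals mark TGACNNNGC, the core of the antioxidant response element that the factor NRF2 binds.
Gsto2: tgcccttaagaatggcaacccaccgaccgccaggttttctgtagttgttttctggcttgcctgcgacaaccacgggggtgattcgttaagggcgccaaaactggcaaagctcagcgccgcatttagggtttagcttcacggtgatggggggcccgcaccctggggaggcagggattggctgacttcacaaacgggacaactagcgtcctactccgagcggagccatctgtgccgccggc
Gsto1: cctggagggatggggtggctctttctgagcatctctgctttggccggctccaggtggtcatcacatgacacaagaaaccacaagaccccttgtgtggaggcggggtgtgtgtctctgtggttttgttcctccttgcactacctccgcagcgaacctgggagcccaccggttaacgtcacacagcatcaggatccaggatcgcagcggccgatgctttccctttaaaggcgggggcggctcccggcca
Gstm5: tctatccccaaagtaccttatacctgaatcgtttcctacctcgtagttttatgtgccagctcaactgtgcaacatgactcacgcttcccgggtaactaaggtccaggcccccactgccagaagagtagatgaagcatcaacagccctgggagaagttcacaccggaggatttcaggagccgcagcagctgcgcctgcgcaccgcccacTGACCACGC
Gstm7: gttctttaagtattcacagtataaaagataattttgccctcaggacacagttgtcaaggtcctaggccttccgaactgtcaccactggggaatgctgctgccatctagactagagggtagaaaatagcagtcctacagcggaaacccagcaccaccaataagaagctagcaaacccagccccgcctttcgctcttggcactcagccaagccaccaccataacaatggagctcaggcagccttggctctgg
Gstt4: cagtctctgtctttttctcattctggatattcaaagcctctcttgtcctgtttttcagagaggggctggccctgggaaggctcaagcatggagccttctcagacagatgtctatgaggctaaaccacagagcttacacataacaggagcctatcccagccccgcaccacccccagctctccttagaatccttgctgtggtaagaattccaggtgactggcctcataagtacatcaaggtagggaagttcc

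TGACNNNGC, searched on both strands, was present in a promoter window of 5 of the 36 members that have one (13.9%; Gsta3, Gstm5, Gstm7, Prdx1 and Sod1), and for 11.5% of all 27025 symbols with a window of that length, where a gene with several windows counted once if any held it. The match of Gstm7 lies in another of its windows than the one shown. The cyclic AMP response element TGACGTCA, a motif chosen after the data were seen, was in the windows of 0 of 36 members and of 1.77% of all symbols. A match is a description of letters and not a site of binding.

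Testis changed with age in WT mice, and the comparison of P40 with P8 asks which members belong to the adult organ. A member was called when edgeR's adjusted p was under 0.01 and it differed at least 2-fold. With TMM scaling, which sets most genes to no change, 8 of 36 tested members rose and 17 fell, whereas with libraries scaled on the 15 Sertoli cell genes 17 rose and 3 fell. Among all 16892 genes tested with TMM, 31.9 percent rose and 27.8 percent fell. With Sertoli cell scaling 9520 of these genes rose and 1222 fell. The members that rose with TMM were Gpx4, Gpx6, Gstm5, Gsto2, Gstt2, Gstt3, Gstt4 and the mitochondrial superoxide dismutase Sod2. The member median was -0.95 on the log2 scale and that of all genes was -0.03. Scaling on Sertoli cell genes shifted the median of all genes to 1.51, and scaling on library size alone shifted it to -0.70.

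Gpx4 was at 88.6, 95.26 and 98.08 CPM (counts scaled to TMM library size) in P8 WT testis and at 1488, 1450 and 1212 CPM at P40. All P40 libraries stood far above all P8 libraries, a log2 change of 3.88 ± 0.12 (SE, n = 3 per group, edgeR adjusted p = 6.85e-08). Gstm5, a mu transferase, was at 44.71, 57.19 and 76.52 CPM at P8 and at 1927, 1814 and 1530 CPM at P40. Its log2 change of 4.89 ± 0.23 (edgeR adjusted p = 5.66e-07) was larger than that of Gpx4, and the age groups did not overlap. Gsto2, an omega transferase that reduces dehydroascorbate, was at 3.682, 1.781 and 2.153 CPM at P8 and at 240.6, 237.4 and 201.3 CPM at P40, a log2 change of 6.48 ± 0.28 (edgeR adjusted p = 3.63e-07).

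Gstt4, a theta transferase, had 0 counts in each P8 WT testis library and 7100, 8160 and 7442 counts at P40. Against a floor of 3 counts per library it was at least 4010-fold higher at P40. Gpx6, a peroxidase known from olfactory epithelium, was at 0, 0.08286 and 0.4476 CPM at P8 and at 14.41, 16.46 and 10.19 CPM at P40, a log2 change of 6.23 ± 0.81. The theta transferases Gstt2 and Gstt3 rose by 3.40 and 2.46 on the log2 scale, and Sod2 by 1.08.

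Among the 17 that fell with TMM were Gpx7 and Gpx8, peroxidases of the endoplasmic reticulum. Gpx7 was at 29.84, 33.76 and 43.42 CPM at P8 and at 1.426, 1.033 and 1.953 CPM at P40. Its log2 change was -4.59 ± 0.27 (edgeR adjusted p = 1.77e-06), and it stayed lower, at -3.10, when libraries were scaled on Sertoli cell genes. Gstm6 was at 384.4, 398.3 and 297.1 CPM at P8 and at 50.94, 51.51 and 60.0 CPM at P40, a log2 change of -2.73 ± 0.14 with TMM and -1.18 with Sertoli cell scaling. Cat, the peroxisomal catalase, fell from 60.05, 59.93 and 77.99 CPM to 19.15, 16.59 and 22.96 CPM with TMM, a log2 change of -1.75 ± 0.16. With Sertoli cell scaling Cat was at -0.25 and no longer called. The same scaling turned the sign of cytosolic Gpx1, from -1.33 ± 0.16 with TMM to 0.19.

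Cell composition moved with age. The summed level of 10 spermatid genes was 3.30 to 3.94 FPKM in P8 WT testis, with Tnp1 at 0, and 11523 to 13076 FPKM at P40, and that of the 15 Sertoli cell genes went from 2860 to 3847 FPKM down to 822 to 979 FPKM. All 10 spermatid and all 15 Sertoli cell genes were above 3 counts in a library at P40, and 7 of the 10 spermatid genes were at P8. The part of cell composition in the members' changes was not tested. In whole tissue, fewer cells of a type and less RNA per cell cannot be told apart.

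P23 testis of INSL3-KO mice was compared with WT within the second table, to ask how the members differ in these mice. With TMM 22 of 37 tested members rose and 8 fell, while with Sertoli cell scaling 0 rose and 18 fell. Of all 16732 genes tested with TMM, 31.1 percent rose and 33.4 percent fell. With Sertoli cell scaling 82 of these genes rose and 13126 fell. The member median was 1.78 with TMM and -0.90 with Sertoli cell scaling, and the median of all genes was 0.06 and -2.62.

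The 8 that fell were Gstt4, Gsto2, Gpx6, Gstm5, Gpx4, Gstt2, Gstt3 and Prdx4 under both scalings. Gstt4 was at 326.3, 338.0 and 338.0 CPM in WT and at 0.3705, 0.3808 and 0.08326 CPM in INSL3-KO testis. Its log2 change was -10.22 ± 0.16 (edgeR adjusted p = 3.99e-12). Gstm5 was at 2599, 2559 and 2545 CPM in WT and at 59.84, 67.52 and 56.29 CPM in INSL3-KO, a log2 change of -5.39 ± 0.07 with TMM (edgeR adjusted p = 1.44e-12) and -8.07 with Sertoli cell scaling. Gpx4 went from 1290, 1462 and 1459 CPM to 135.6, 135.4 and 135.1 CPM, a log2 change of -3.37 ± 0.06. The 3 INSL3-KO values of Gpx4 lay within a narrow band. Gsto2 was at 308.0, 303.2 and 307.7 CPM in WT and at 2.293, 3.928 and 4.933 CPM in INSL3-KO, and Gpx6 at 23.72, 21.51 and 22.97 against 0.5327, 0.2405 and 0.3747 CPM. Their log2 changes were -6.35 ± 0.18 and -5.90 ± 0.21. Prdx4, the peroxiredoxin of the endoplasmic reticulum, was at 171.0, 163.6 and 162.7 CPM in WT and at 74.25, 84.92 and 80.54 CPM in INSL3-KO testis, a log2 change of -1.05 ± 0.06. With library size alone, and with limma on log2(FPKM + 1), Prdx4 was not called. Its smallest fall in any setting was -0.415.

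The 22 that rose with TMM, none of which rose with Sertoli cell scaling, were Cat, Sod3, Gpx1, Gpx3, Gpx7, Gpx8, Prdx1, Prdx2, Prdx3, Gsta2, Gsta3, Gsta4, Gstk1, Gstm1, Gstm2, Gstm3, Gstm6, Gstm7, Gsto1, Gstp1, Gstp2 and Gstt1. Gstm6 was at 72.83, 69.57 and 75.75 CPM in WT and at 555.4, 554.4 and 531.8 CPM in INSL3-KO testis, a log2 change of 2.91 ± 0.05 with TMM and 0.23 with Sertoli cell scaling. Gstm1, the most abundant mu transferase at P8, was at 495.5, 481.0 and 471.6 CPM in WT and at 2240, 2220 and 2133 CPM in INSL3-KO, a log2 change of 2.19 ± 0.04 with TMM and -0.49 with Sertoli cell scaling. Gpx3, the secreted peroxidase of plasma, was at 13.08, 13.73 and 14.96 against 90.3, 93.51 and 89.38 CPM, a log2 change of 2.71 ± 0.07 with TMM and 0.03 with Sertoli cell scaling.

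Sertoli cell scaling lowered all genes by a like amount, so the sign also turned for Gpx1, Cat and Sod3. Gpx1 was at 34.66, 40.65 and 37.58 CPM in WT and at 184.3, 197.0 and 167.9 CPM in INSL3-KO testis, a log2 change of 2.28 ± 0.08 with TMM and -0.40 with Sertoli cell scaling. Cat was at 24.66, 23.04 and 19.6 against 73.97, 76.66 and 79.83 CPM, a log2 change of 1.78 ± 0.09 with TMM and -0.90 with Sertoli cell scaling. Sod3, the extracellular superoxide dismutase, changed by 1.66 ± 0.05 with TMM and by -1.02 with Sertoli cell scaling, and was called under each. Gstm3 changed by 2.99 ± 0.39 with TMM and stood at 0.30 with Sertoli cell scaling.

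The spermatid genes summed to 16763 to 18784 FPKM in P23 WT testis and to 13.5 to 16.4 FPKM in INSL3-KO testis, with all 10 above 3 counts in a library of each group. The Sertoli cell genes summed to 987 to 1017 and 7339 to 7422 FPKM, 10 Leydig cell genes to 315 to 326 and 1255 to 1302 FPKM, and 10 macrophage genes to 70.6 to 71.9 and 767 to 829 FPKM, with no gene of these lists at 0. Their part in the changes of the members was not tested.

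**Figure D2:**
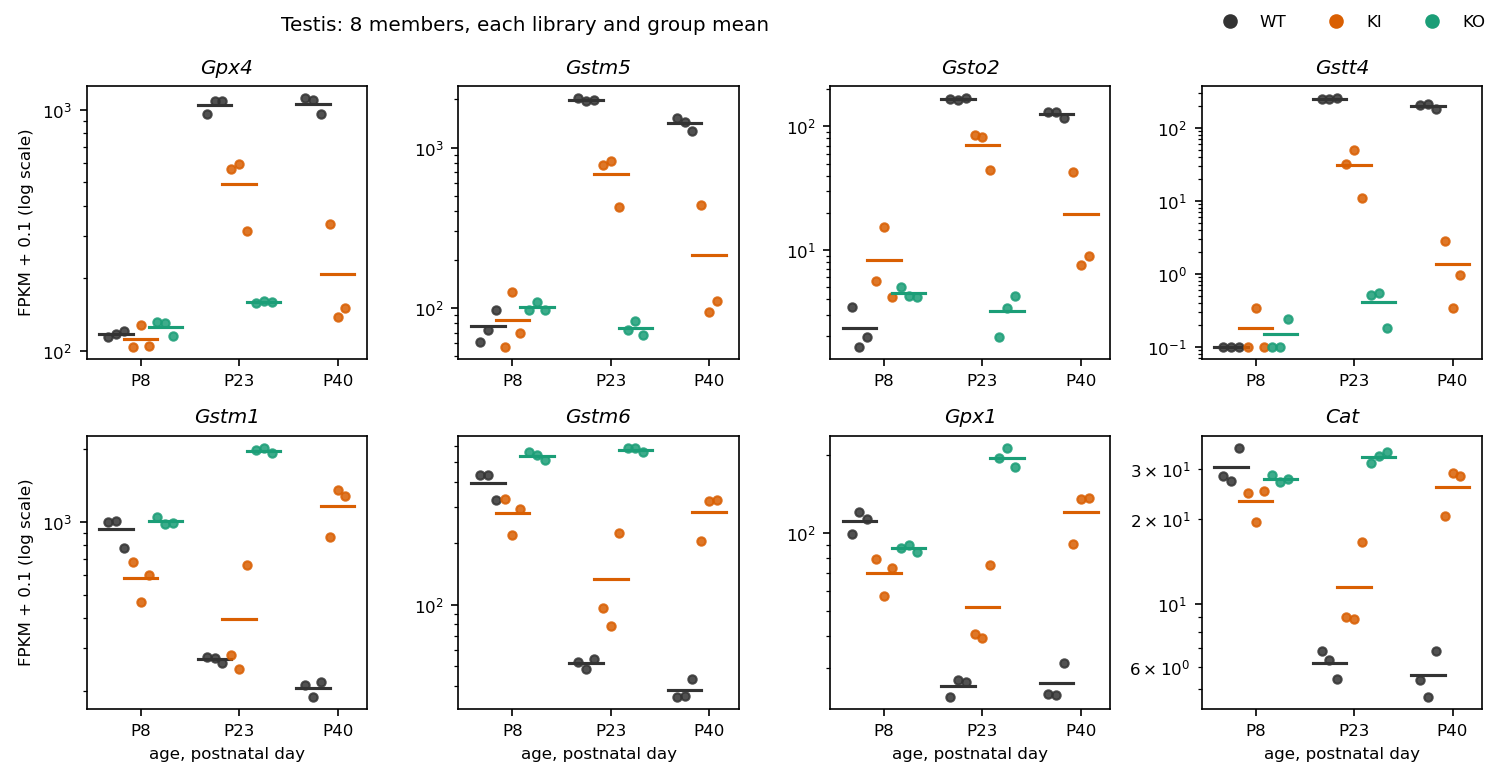
FPKM + 0.1 (log scale) of 8 members in each testis library (points) with group means (lines), by age in postnatal days and genotype (WT, INSL3-KI, INSL3-KO). In the upper row, Gpx4, Gstm5, Gsto2 and Gstt4 are high in P23 and P40 WT and low in P23 INSL3-KO, while in the lower row Gstm1, Gstm6, Gpx1 and Cat are low in P23 and P40 WT and higher in P23 INSL3-KO, an order that depends on the scaling to all fragments.

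The members' age pattern in WT can be set beside their change in P23 INSL3-KO testis, since these comparisons share no library. All 17 members that fell with age with TMM were higher in P23 INSL3-KO, and 7 of the 8 that rose with age were lower, the exception being Sod2 (-0.55 on the log2 scale). Of all genes, 73.9% of the 4519 that fell with age were higher in P23 INSL3-KO and 86.1% of the 5325 that rose were lower. Both contrasts turn together with the scaling, since with Sertoli cell scaling 0 of the 17 were called higher in INSL3-KO.

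P40 testis of INSL3-KI mice was compared with WT within the first table, to ask how the adult pattern differs in these mice. With TMM 21 of 36 tested members rose and 6 fell, and with Sertoli cell scaling 0 rose and 18 fell. Of all 16677 genes tested with TMM, 25.6 percent rose and 22.1 percent fell. With Sertoli cell scaling 22 of these genes rose and 12433 fell. The member median was 1.35 with TMM and -1.04 with Sertoli cell scaling, beside 0.09 and -2.26 for all genes.

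The 6 that fell, under both scalings, were Gstt4, Gpx6, Gstm5, Gsto2, Gpx4 and Prdx4. Gstt4 was at 267.5, 274.8 and 218.7 CPM in WT and at 2.367, 0.2045 and 0.7167 CPM in INSL3-KI testis, a log2 change of -7.85 ± 0.95 (edgeR adjusted p = 0.00068). Gstm5 was at 1885, 1774 and 1496 CPM in WT and at 364.7, 72.99 and 82.96 CPM in INSL3-KI, a log2 change of -3.31 ± 0.71 (edgeR adjusted p = 0.0061). Gpx4 was at 1455, 1418 and 1185 CPM against 291.7, 113.5 and 119.9 CPM, a log2 change of -2.95 ± 0.44 (edgeR adjusted p = 0.00143). In each of these genes the first INSL3-KI library stood above the other two, yet below every WT library. The same library held 2250 FPKM of 10 spermatocyte genes, against 466 and 419 FPKM in the other two. Gsto2 was at 235.3, 232.2 and 196.8 CPM in WT and at 52.16, 8.545 and 9.922 CPM in INSL3-KI, a log2 change of -3.23 ± 0.77 (edgeR adjusted p = 0.00912). The calls on Gstm5 and Gsto2 were lost when any WT library, or INSL3-KI library 2 or 3, was left out, with adjusted p of 0.0145 to 0.0225 and 0.0181 to 0.0302 and log2 changes of -3.38 to -2.93 and -3.29 to -2.83. Gpx6 changed by -5.65 ± 0.36. Prdx4 was at 93.64, 87.15 and 78.21 CPM in WT and at 39.94, 41.88 and 38.39 CPM in INSL3-KI testis, a log2 change of -1.11 ± 0.12, and its INSL3-KI libraries lay close together. With library size alone neither Prdx4 nor Gsto2 was called, and limma did not call Prdx4 either. The smallest fall of Prdx4 in any setting was -0.493.

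The largest rises with TMM were those of Gstm3 (5.10 ± 0.88, call lost without WT library 2 at adjusted p = 0.0148) and of Gstm6 (2.33 ± 0.21), which with Sertoli cell scaling were at 2.63 and -0.07 and not called. Gstm6 was at 49.82, 50.38 and 58.67 CPM in WT and at 200.7, 302.9 and 293.6 CPM in INSL3-KI testis. Cat was at 18.73, 16.23 and 22.45 CPM in WT and at 48.19, 64.68 and 61.48 CPM in INSL3-KI, a log2 change of 1.60 ± 0.18 with TMM and -0.78 with Sertoli cell scaling. Gpx1 changed by 1.61 ± 0.20 with TMM and -0.78 with Sertoli cell scaling, and Sod3 by 1.31 ± 0.16 and -1.08. Gpx3 was at 12.89, 9.16 and 19.69 CPM in WT and at 37.98, 39.88 and 61.64 CPM in INSL3-KI, a log2 change of 1.74 ± 0.34 with TMM, whose call was lost without WT library 1 or 2 or INSL3-KI library 3 (adjusted p of 0.0101 to 0.0201, log2 change of 1.49 to 1.70), and of -0.63 with Sertoli cell scaling. The spermatid genes summed to 11523 to 13076 FPKM in P40 WT and to 13.9 to 64.4 FPKM in INSL3-KI testis, and the Sertoli cell genes to 822 to 979 and 3890 to 6179 FPKM, with no gene of either list at 0. Their part in the members' changes was not tested.

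**Figure D3:**
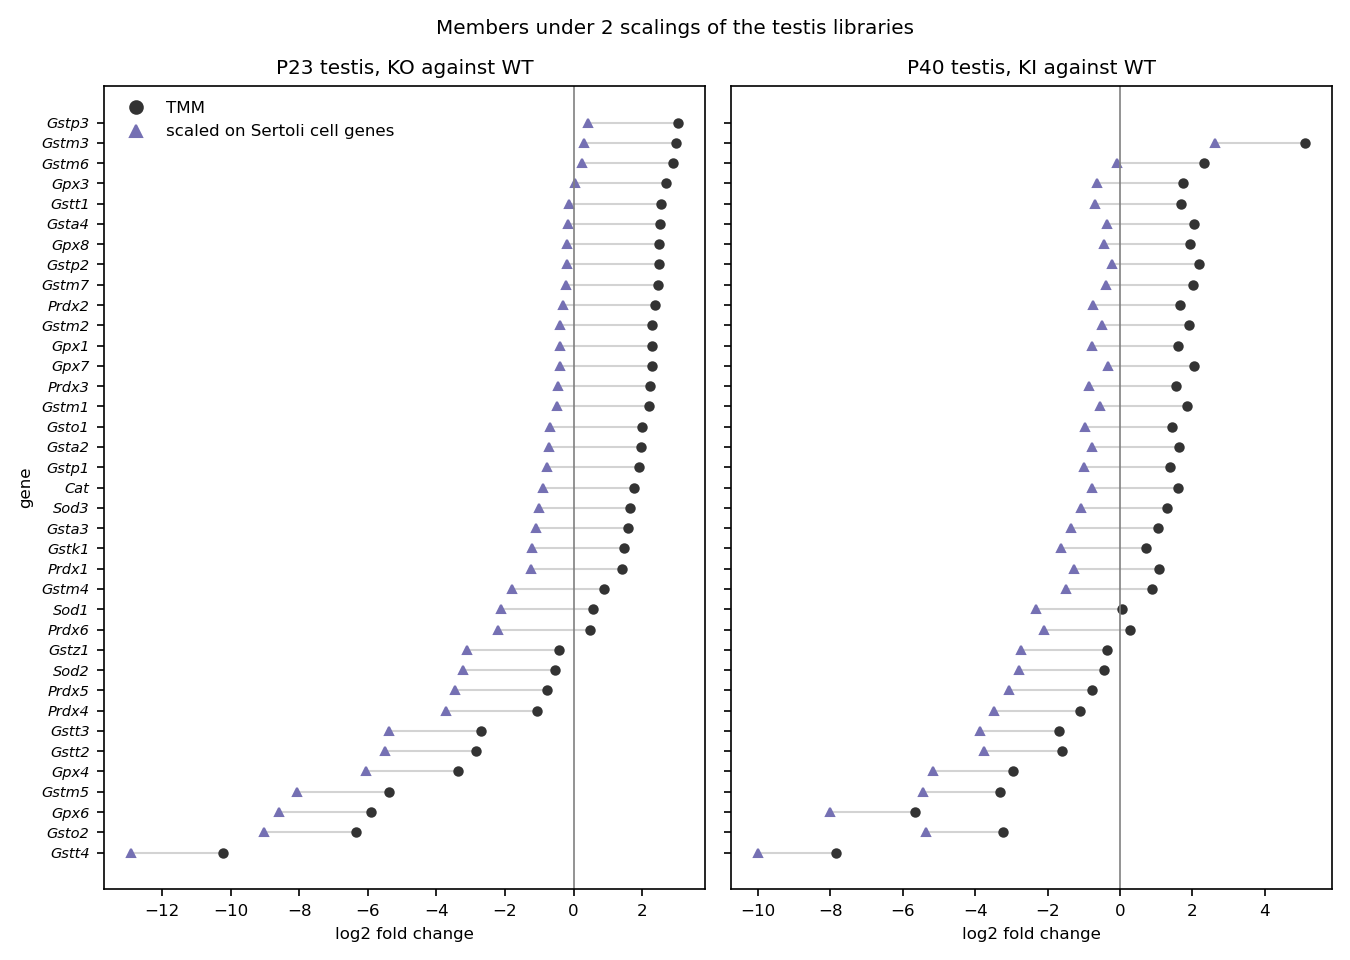
Log2 fold change (horizontal axis) of each tested member (vertical axis) in P23 testis, INSL3-KO against WT (left), and in P40 testis, INSL3-KI against WT (right), with TMM (circles) and with libraries scaled on Sertoli cell genes (triangles), where grey lines join the same gene. Gstt4, Gpx6, Gstm5, Gsto2, Gpx4 and Prdx4 are below 0 under both scalings in both panels, while most members above 0 with TMM lie near or below 0 on the second scale.

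The comparisons of P23 INSL3-KO against WT and of P40 INSL3-KI against WT share no library and can be set side by side. Of the 22 members that rose in P23 INSL3-KO testis with TMM, 21 rose in P40 INSL3-KI testis (95.5%, and 76.9% of all 5137 such genes), though 0 did so in either with Sertoli cell scaling. Of the 8 that fell, 6 fell in P40 INSL3-KI testis (75.0%, and 64.7% of all 5449 such genes), and the other two were Gstt2 and Gstt3. Gstt2 was at 55.05, 48.05 and 45.57 CPM in P40 WT and at 32.62, 7.817 and 8.735 CPM in INSL3-KI testis (-1.60, edgeR adjusted p = 0.0412), and Gstt3 at 46.92, 44.11 and 46.3 against 26.84, 7.908 and 7.906 CPM (-1.69, edgeR adjusted p = 0.0226). In both the first INSL3-KI library was again the highest of its group. The kappa transferase Gstk1 rose in P23 INSL3-KO with TMM (1.46 ± 0.17) and was not called in P40 INSL3-KI (0.73, edgeR adjusted p = 0.00701), and it fell in both with Sertoli cell scaling (-1.22 and -1.64).

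**Figure D4:**
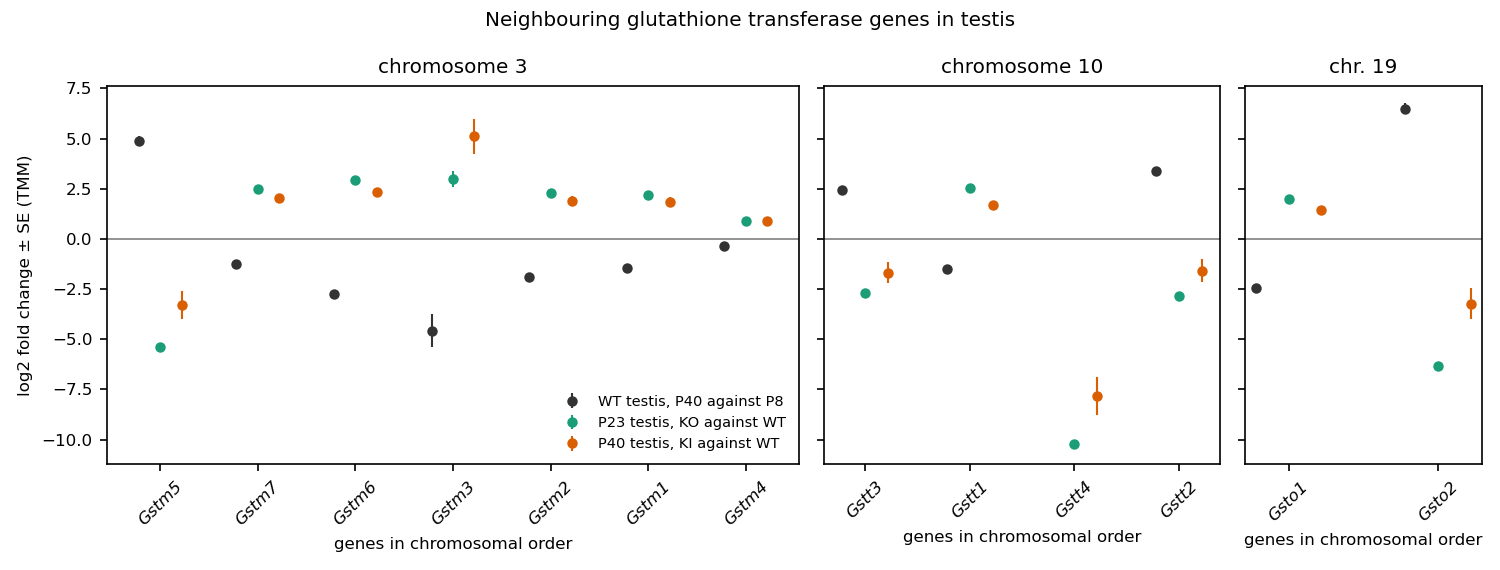
Log2 fold change ± SE with TMM (vertical axis) of neighbouring transferase genes in chromosomal order (horizontal axis) for WT testis at P40 against P8 (black), P23 INSL3-KO against WT and P40 INSL3-KI against WT, with Gstt4 left out of the first since it had 0 counts at P8. Gstm5, Gsto2 and the theta transferases Gstt2 and Gstt3 are on the opposite side of 0 from Gstm6, Gstm2, Gstt1 and Gsto1 in each contrast, which with Sertoli cell scaling holds for the fall of the former but not for the rise of the latter in the mutants.

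The INSL3-KI effect in testis at P40 minus that at P8 was tested as an interaction, with all 4 groups in the first table. With TMM it was higher at P40 for 20 of 38 tested members and lower for 4 (all genes, 23.2 percent and 22.5 percent). The 4 lower were Gstm5, Gsto2, Gpx4 and Gstt4. For Gpx4 the effect differed by -2.87 ± 0.44 (edgeR adjusted p = 0.000273), since its P8 log2 change was -0.16. For Gpx7 it differed by 3.71 ± 0.40 (edgeR adjusted p = 4.3e-05), from -1.74 at P8 to 2.04 at P40 with TMM, the latter being -0.34 with Sertoli cell scaling. The interaction call on Gstm5 was lost without P8 WT library 1 or 2 or P40 WT library 1 or 2, at adjusted p of 0.0108 to 0.0127, and that on Gpx3 without any of 5 libraries, at 0.0133 to 0.0157. The call on Gstt4, which had 0 counts in P8 WT, was lost without P8 INSL3-KI library 2, any P40 WT library or P40 INSL3-KI library 3 (adjusted p of 0.0116 to 1.0) and with the replicate block (0.0136).

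In P23 testis INSL3-KI was in the first table and WT and INSL3-KO in the second, so that genotype and table cannot be told apart. Against WT, 8 of 36 tested members fell and 1 rose with TMM (all genes, 11.8 percent and 8.81 percent). With Sertoli cell scaling 5 members fell and 0 rose, beside 1547 and 67 of all 16603 genes. The median of all genes was 0.08 with TMM and -1.07 with Sertoli cell scaling. Gstm5 was at 2454, 2422 and 2400 CPM in WT and at 687.0, 726.0 and 323.6 CPM in INSL3-KI testis, a log2 change of -2.07 ± 0.34 (edgeR adjusted p = 0.00456). Gpx4 was at 1218, 1383 and 1376 CPM in WT and at 521.3, 546.4 and 251.0 CPM in INSL3-KI, a log2 change of -1.59 ± 0.32 (edgeR adjusted p = 0.00833). The third INSL3-KI library was the lowest for both genes. It also held 89.5 FPKM of the spermatid genes, against 681 and 943 FPKM, and 3910 FPKM of the Sertoli cell genes, against 1673 and 1323 FPKM, and the part of this in the result was not tested.

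Gstt4, Gpx6, Gsto2, Prdx4, Gstk1 and the cytosolic dismutase Sod1 also fell in P23 INSL3-KI testis, and Gpx7 rose with TMM (1.74 ± 0.36, and 0.46 with Sertoli cell scaling). Prdx4 was at 161.5, 154.9 and 153.5 CPM in WT and at 38.52, 38.58 and 43.21 CPM in INSL3-KI, a log2 change of -1.97 ± 0.12 (edgeR adjusted p = 0.000285). Its INSL3-KI libraries differed little from each other, and 1 to 9 members fell when each library in turn was left out. Without any WT library, or without INSL3-KI library 1, a single member fell and 0 rose, and the calls on Gpx6, Gstt4, Gstm5, Gpx7 and Gsto2 were lost at adjusted p of 0.0175 to 0.0377. The calls on Gpx4 and Sod1 were lost without these or INSL3-KI library 2, at adjusted p of 0.0108 to 0.038. With Sertoli cell scaling the calls that stood were those of Prdx4, Gstk1 and Sod1. Of the 8 members that rose with WT age, 5 fell in P23 INSL3-KI testis (28.8% of 5357 genes did), and of the 17 that fell with age with TMM 1 rose (22.2% of 4464 genes did).

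Between the mutants at P23, INSL3-KI against INSL3-KO, 23 of 37 tested members were lower and 6 higher with TMM (all genes, 13 percent and 25.2 percent). With Sertoli cell scaling 4 members were lower, and of all 16379 genes 115 were lower and 7726 higher. The median of all genes was 0.02 with TMM and 1.48 with Sertoli cell scaling. The 6 higher were Gpx4, Gstm5, Gsto2, Gstt2, Gstt3 and Gstt4, under both scalings, and Prdx5 and Sod2 were called higher with Sertoli cell scaling alone. For Sod2 the tables differ in the gene length that counts and FPKM imply, 5897.2 bases in the first and 4032.5 in the second. The part of this in its call was not tested. Gsto2 was at 138.4, 136.2 and 62.29 CPM in INSL3-KI and at 2.654, 4.542 and 5.745 CPM in INSL3-KO testis, a log2 difference of 4.70 ± 0.44 (edgeR adjusted p = 0.000292). Gpx4 was at 666.3, 700.0 and 312.2 against 157.0, 156.6 and 157.4 CPM, a log2 difference of 1.83 ± 0.30 whose call was lost without INSL3-KI library 1 or any INSL3-KO library (adjusted p of 0.0108 to 0.0132). Gstk1 was lower in INSL3-KI under both scalings (-2.79 ± 0.23 with TMM and -1.38 with Sertoli cell scaling). The count of lower members was 13 without INSL3-KI library 1 and 14 without INSL3-KO library 1.

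At P8, before spermatids form, 1 to 3 members were called in each comparison of testis. Numbers of members at unadjusted p under 0.05 are also given, without the share of all genes at that threshold. In INSL3-KI against WT, within the first table, 3 of 36 tested members fell and 0 rose by edgeR (all genes, 3.25 percent and 3.03 percent; 15 members were below and 4 above WT at unadjusted p under 0.05, DESeq2 called 1 higher and limma 0). Gpx7 was at 39.4, 43.84 and 57.2 CPM in WT and at 15.83, 10.24 and 15.94 CPM in INSL3-KI, a log2 change of -1.74 ± 0.23 (edgeR adjusted p = 0.0047). All INSL3-KI libraries lay below all WT libraries. The member median was -0.22, against 0.00 for all genes. Gsto1 and Gstm2 changed by -1.01 ± 0.16 and -1.01 ± 0.15 (edgeR adjusted p = 0.00732 and 0.00573). The calls on Gsto1 and Gstm2 were lost without any of the 6 libraries, and that on Gpx7 without WT library 2 or 3 or INSL3-KI library 1 or 3 (adjusted p of 0.0147 to 0.0337), so 0 to 1 members fell. The 10 Leydig cell genes summed to 524 to 626 FPKM in P8 WT and 236 to 263 FPKM in INSL3-KI testis, and 8 fibroblast genes to 1627 to 4732 and 780 to 1324 FPKM, with no gene of either list at 0, and their part in these values was not tested.

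Some P8 values turned on a single library. Gsto2 was at 4.862, 2.313 and 2.836 CPM in P8 WT and at 7.526, 21.69 and 5.338 CPM in INSL3-KI testis (1.79, edgeR adjusted p = 0.0547), and Gstt2 at 5.102, 6.294 and 7.498 against 5.423, 42.54 and 5.469 CPM (edgeR adjusted p = 0.197). The second INSL3-KI library was the high one in both. It held 1821 FPKM of the spermatocyte genes, against 608 and 484 FPKM in the others and 45.7 to 94.8 FPKM in WT, and the part of this in the result was not tested.

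In the P8 testis libraries labelled INSL3-KO, which held Insl3 and stood in another table than WT so that genotype and table cannot be told apart, 1 of 36 tested members was lower and 0 higher by edgeR (all genes, 8.37 percent and 5.44 percent; 3 members were below and 13 above WT at unadjusted p under 0.05, and DESeq2 and limma called 0). The one lower was again Gpx7, at 24.42, 23.63 and 21.95 CPM against 39.65, 44.09 and 57.54 CPM in WT, a log2 difference of -1.01 ± 0.14 (edgeR adjusted p = 0.000892). It was just under 2-fold without WT library 3 or library 3 labelled INSL3-KO (-0.97 to -0.84), which left 0 lower, and without WT library 1, 1 member was higher. In the libraries labelled INSL3-KO the spermatocyte genes summed to 603 to 630 FPKM, against 45.7 to 94.8 FPKM in WT. The fibroblast genes summed to 1307 to 1350 against 1627 to 4732 FPKM, and the Leydig cell genes to 395 to 413 against 524 to 626 FPKM. Their part in these values was not tested. INSL3-KI against the libraries labelled INSL3-KO, again across tables, gave 1 of 37 lower, Gstk1, and 0 higher by edgeR (all genes, 1.16 percent and 2.76 percent; 24 members were lower and 1 higher at unadjusted p under 0.05, and DESeq2 and limma called 0 higher). The member median was -0.67, against 0.00 for all genes, and 33 of the 37 were below 0. Gstk1 was at 6.411, 5.254 and 6.731 CPM in INSL3-KI and at 14.31, 11.55 and 13.2 CPM in the libraries labelled INSL3-KO. Its log2 difference of -1.09 ± 0.17 (edgeR adjusted p = 0.00456) was not called without INSL3-KI library 1 or 2 or any library labelled INSL3-KO, and between 0 and 4 members were lower as each library was left out.

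WT gubernaculum at P8 held less of 3 alpha and 5 mu transferases than WT testis of that age, while Gstm4 and Gstm5 were not called and Gsta1 was not tested. In that comparison 9 of 34 tested members were lower and 1 higher in gubernaculum (all genes, 14.3 percent and 14.1 percent), with a member median of -0.20 against 0.01 for all genes. Gstm1 was at 50.54, 58.96 and 45.39 CPM in gubernaculum and at 1093, 1133 and 882.8 CPM in testis, a log2 difference of -4.33 ± 0.17 (edgeR adjusted p = 2.2e-06). Gstm6 was at 1.848, 5.187 and 0.8499 against 422.7, 430.2 and 325.0 CPM (-7.21 ± 0.62). Gsta3, an alpha transferase, was at 0.6049, 0.5155 and 0.272 against 23.97, 29.71 and 24.41 CPM (-5.80 ± 0.29). Gstm3 had 0 counts in each gubernaculum library and was at least 40.6-fold lower there, against 3 counts per library. Gsta2, Gsta4, Gstm2, Gstm7 and Sod3 were the other members lower. Gpx4 was the 1 higher, at 248.8, 201.3 and 201.3 CPM against 97.44, 102.9 and 107.3 CPM (1.08 ± 0.12), and it was at 0.97 and not called without gubernaculum library 1. Gubernaculum library 1 also held 80.9 FPKM of the spermatid genes, against 20.8 and 1.68 FPKM in the other two, whose part in the result was not tested.

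In INSL3-KI gubernaculum at P8, compared with WT within the first table, 15 of 34 tested members rose and 0 fell by edgeR (all genes, 14.4 percent and 9.70 percent; 6 members were below WT at unadjusted p under 0.05, and DESeq2 and limma called 0 lower). Of these 15, 12 were glutathione transferases, with Gpx3, Gpx5 and Sod3 making up the rest. The tested transferases Gstm5, Gstm6, Gsto1, Gsto2, Gstp1 and Gstp2 were not called, and Gsta1, Gstm3, Gstp3 and Gstt4 were not tested. No peroxiredoxin was called. The member median was 0.74, against 0.02 for all genes. Without WT library 3 or INSL3-KI library 3, 1 member fell.

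Gsta3 rose from 0.5841, 0.4969 and 0.2609 CPM in WT to 49.46, 64.44 and 50.17 CPM in INSL3-KI gubernaculum. Its log2 change was 6.92 ± 0.26 (n = 3 per group, edgeR adjusted p = 6.04e-07). Gstm7 was at 4.835, 4.161 and 2.185 CPM in WT and at 22.48, 81.54 and 73.52 CPM in INSL3-KI, a log2 change of 3.99 ± 0.52 (edgeR adjusted p = 0.000362). Here the first INSL3-KI library was the lowest of its group, still above every WT library. Gpx3 was at 81.13, 91.61 and 84.76 CPM in WT and at 425.9, 910.1 and 656.2 CPM in INSL3-KI, a log2 change of 2.95 ± 0.26 (edgeR adjusted p = 4.2e-05), and in FPKM it was the most abundant member of this group. Gstm1 was at 48.81, 56.83 and 43.54 against 192.9, 354.6 and 287.6 CPM (2.49 ± 0.22). Sod3 was at 30.05, 30.03 and 28.02 against 102.3, 82.54 and 85.95 CPM (1.62 ± 0.11). Gsta2 was at 0.2596, 0 and 0 CPM in WT and at 3.582, 5.217 and 2.584 CPM in INSL3-KI (5.41 ± 0.97), a value of 4.80 to 9.97 as each library was left out, the highest without WT library 1, and a call lost without INSL3-KI library 2 (5.11, adjusted p = 0.0106). Gstt3 changed by 2.39 ± 0.17. Gpx5, the secreted peroxidase of the epididymis, had 0 counts in each WT library and 11, 26 and 12 counts in INSL3-KI, at least 5.02-fold more than 3 counts per library.

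INSL3-KO gubernaculum at P8 came from the second table and WT from the first, so genotype and table cannot be told apart. Here 21 of 37 tested members were higher and 0 lower by edgeR (all genes, 15.5 percent and 15.2 percent; 0 members were below WT at unadjusted p under 0.05, and DESeq2 and limma called 0 lower), with a member median of 1.38 against 0.04 for all genes. Gsta3 was at 0.5529, 0.4732 and 0.2485 CPM in WT and at 57.42, 52.38 and 34.43 CPM in INSL3-KO, a log2 difference of 6.81 ± 0.32 (edgeR adjusted p = 3.99e-06). Gstm7 was at 4.576, 3.963 and 2.081 CPM in WT and at 141.1, 153.5 and 148.4 CPM in INSL3-KO (5.38 ± 0.27). Both genes were far above WT in each INSL3-KO library. Gstm6, at 1.689, 4.761 and 0.7766 against 34.08, 36.06 and 33.78 CPM, differed by 3.84 ± 0.56, and Gstk1, at 4.361, 4.022 and 4.1 against 29.49, 26.75 and 22.94 CPM, by 2.66 ± 0.13.

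Of the peroxidases, peroxiredoxins, dismutases and catalase, those called higher in INSL3-KO gubernaculum were Cat, Gpx1, Gpx3, Gpx5, Gpx6, Prdx1, Prdx3 and Sod3. Cat was at 77.09, 87.89 and 87.75 CPM in WT and at 289.0, 240.0 and 221.1 CPM in INSL3-KO, a log2 difference of 1.57 ± 0.12. Gpx1 was at 131.2, 101.9 and 119.6 against 329.9, 306.9 and 283.2 CPM (1.38 ± 0.11), Gpx3 at 76.79, 87.24 and 80.73 against 313.4, 332.7 and 301.0 CPM (1.95 ± 0.08), and Prdx1 and Prdx3 differed by 1.49 and 1.33. Sod3, at 28.44, 28.6 and 26.68 against 57.19, 60.26 and 53.04 CPM, differed by 1.03 ± 0.08 and was just under 2-fold (0.99) without INSL3-KO library 2. Gpx5 and Gpx6 were at least 11.3-fold and 9.10-fold higher, and Gstm3 at least 23.6-fold, against WT libraries at or under 3 counts. Gstm3 was at 3.932, 2.225 and 0.3124 CPM in INSL3-KO, and its call was lost without any WT library or INSL3-KO library 1 or 2 (adjusted p of 0.0134 to 0.0246). The pi transferase Gstp3 was at 0.9702, 0.9163 and 0.3793 CPM in INSL3-KO and at 0.1229, 0 and 0 CPM in WT, and its call was lost without any of 5 libraries (adjusted p of 0.0168 to 0.0426).

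Other tissues' genes moved with these results. Of 12 genes of epididymal epithelium 7 had 0 counts in P8 WT gubernaculum (Adam28, Lcn9, Lcn5, Lcn8, Cst11, Defb12 and Spint3) and 2 were above 3 counts, while 9 were in INSL3-KI and in INSL3-KO. Their summed level was 0.283 to 1.24 FPKM in WT, 579 to 1352 FPKM in INSL3-KI and 827 to 905 FPKM in INSL3-KO. The 10 adipocyte genes summed to 122 to 131, 1202 to 1528 and 2266 to 2590 FPKM, with Retn at 0 in WT, and the 10 skeletal muscle genes to 14419 to 15391, 568 to 995 and 4630 to 5047 FPKM, with none at 0. Hepatocyte genes summed to 4365, 1312 and 106 FPKM in the INSL3-KO libraries and to 1.17 to 13.9 FPKM in WT. In INSL3-KI they summed to 9.48 to 63.1 FPKM, with Ttr at 0. The 15 Sertoli cell genes summed to 212 to 246 FPKM in WT, 739 to 1850 FPKM in INSL3-KI, with Fshr at 0, and 836 to 1621 FPKM in INSL3-KO. The part of these tissues in the members' changes was not tested.

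Directly compared at P8, INSL3-KI gubernaculum had 10 of 37 tested members lower than INSL3-KO and 1 higher with TMM (all genes, 10.5 percent and 11.9 percent), and 6 lower and 3 higher with library size alone. Genotype and table cannot be told apart in this comparison. Cat was at 129.4, 126.7 and 132.4 CPM in INSL3-KI and at 325.4, 271.5 and 250.7 CPM in INSL3-KO, a log2 difference of -1.13 ± 0.10 (edgeR adjusted p = 9.99e-05). Gstm5 was at 54.48, 40.17 and 60.16 against 148.9, 158.4 and 159.9 CPM (-1.59 ± 0.15), and Gstm6 at 6.571, 10.81 and 15.88 against 38.38, 40.79 and 38.3 CPM (-1.82 ± 0.29). In all 3 the INSL3-KI libraries lay below every INSL3-KO library. Gpx8 (-1.26), Gsto1 (-1.02), Gstp2 (-1.51), Prdx1 (-1.13) and Prdx4 (-1.14) were lower too, and Gpx6 and Gstp3 were at least 10.3-fold and 9.30-fold lower against 3 counts per library. The calls on Gstp2 (without INSL3-KI library 2 or INSL3-KO library 1 or 2), Gstp3 (without INSL3-KO library 1 or 2) and Prdx4 (-0.94 without INSL3-KI library 2) each depended on single libraries. Gsta2 was the 1 higher (1.62 ± 0.35), a call lost without any of 5 libraries (adjusted p of 0.0152 to 0.0178).

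WT gubernaculum changed between P8 and P23 in 10 of 32 tested members, all higher at P23 and 0 lower by edgeR (all genes, 6.17 percent and 4.34 percent; 2 members were lower at unadjusted p under 0.05, DESeq2 called 1 lower and limma 0). Gpx3 was at 70.13, 78.35 and 72.83 CPM at P8 and at 455.3, 273.0 and 483.4 CPM at P23, a log2 change of 2.45 ± 0.24 (edgeR adjusted p = 0.000954). Gsta3 was at 0.5049, 0.4249 and 0.2242 against 7.106, 5.231 and 10.21 CPM (4.28 ± 0.43), and Gstp2 at 11.81, 9.03 and 8.828 against 70.68, 36.28 and 37.78 CPM (2.29 ± 0.29). Gpx1, Sod3, Gsto1, Gstm1, Gstm4, Gstk1 and Gstt1 were the other members that rose. Only 3 to 4 members rose when a P8 library was left out, and 6 without P23 library 2, and the calls on Gstp2, Gstk1, Gstm1, Gpx1 and Sod3 were among those lost. The skeletal muscle genes summed to 14419 to 15391 FPKM at P8 and 32839 to 50295 FPKM at P23, with none at 0, and the epididymal genes to 0.126, 0.228 and 689 FPKM in the P23 libraries, with 6 of 12 at 0. Their part in the members' changes was not tested.

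At P23 the gubernaculum of INSL3-KI mice, compared with WT within the first table, had 1 of 33 tested members higher and 1 lower (all genes, 0.212 percent and 2.35 percent). Gsta3 was at 7.67, 5.486 and 10.8 CPM in WT and at 149.5, 149.3 and 77.96 CPM in INSL3-KI, a log2 change of 3.97 ± 0.40 (edgeR adjusted p = 0.00461). Gstp2 was at 76.29, 38.05 and 39.96 CPM in WT and at 7.068, 7.512 and 8.598 CPM in INSL3-KI, a log2 change of -2.73 ± 0.33 (edgeR adjusted p = 0.00771). Neither gene overlapped between the groups. The call on Gsta3 was lost without any WT library or INSL3-KI library 1 (adjusted p of 0.0169 to 0.0332), and that on Gstp2 without WT library 2 or 3 or any INSL3-KI library (0.0118 to 0.0427). Without INSL3-KI library 2 or 3, 2 and 3 members were higher.

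The P23 INSL3-KI gubernaculum libraries differed widely among themselves. Cat was at 525.3, 721.5 and 81.48 CPM against 126.8, 107.5 and 114.7 CPM in WT (edgeR adjusted p = 0.129). Gstz1, an enzyme of tyrosine breakdown, was at 327.5, 626.2 and 57.82 against 45.87, 36.48 and 42.0 CPM (edgeR adjusted p = 0.0607). In these the third library was the lowest, whereas Gstm7 was at 6.774, 4.224 and 930.7 CPM against 9.653, 5.368 and 61.27 CPM in WT, with the third library the highest. Gpx3 was at 397.8, 520.0 and 2365 CPM against 491.4, 286.4 and 511.3 CPM, and Gpx5 had 0, 0 and 351 counts. The epididymal genes summed to 1567, 2.35 and 5826 FPKM in these libraries and to 0.126, 0.228 and 689 FPKM in WT. The adipocyte genes summed to 10725, 18324 and 775 FPKM and the hepatocyte genes to 1717, 3191 and 100 FPKM in INSL3-KI, with Fgb and Ttr at 0, and the skeletal muscle genes to 612, 16.4 and 474 FPKM, against 32839 to 50295 FPKM in WT. Their part in these values was not tested. The difference between the INSL3-KI effects at P23 and P8 was called for 0 of 34 members in either direction by edgeR (all genes, 0.0874 percent higher and 0.194 percent lower at P23; 8 members had unadjusted p under 0.05, and DESeq2 called 5 lower). As each library was left out, 0 to 3 members were lower and 0 to 2 higher.

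**Figure D5:**
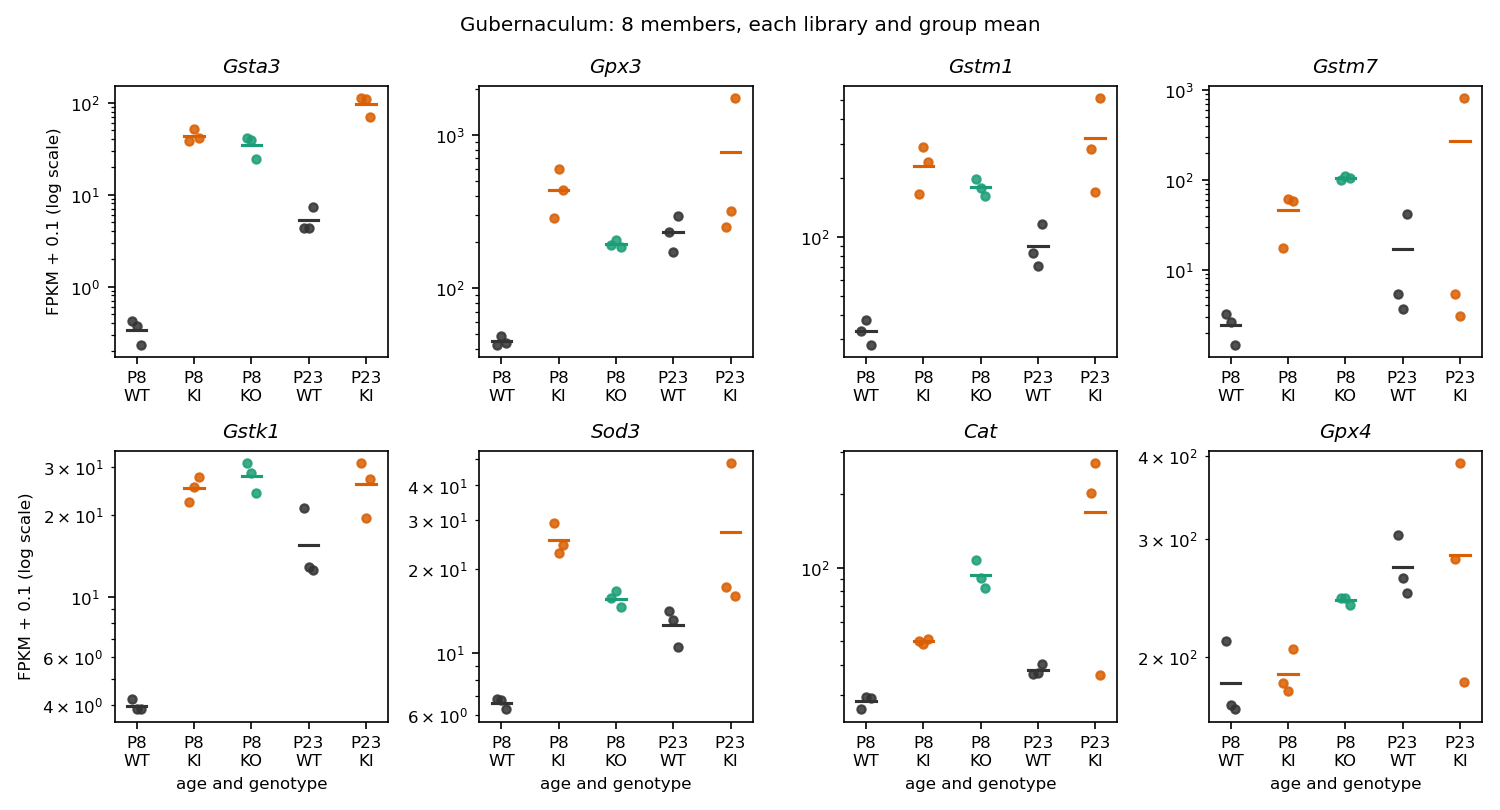
FPKM + 0.1 (log scale) of 8 members in each gubernaculum library (points) with group means (lines), by age and genotype. Gsta3, Gpx3, Gstm1, Gstm7, Gstk1 and Sod3 are above WT in every P8 INSL3-KI and INSL3-KO library, and Gstm7 and Cat spread over more than a factor of 5 among the P23 INSL3-KI libraries.

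The genes that feed these enzymes were read from 7 lists, whose counts stand beside 31.1 percent of all genes that rose and 33.4 percent that fell in P23 INSL3-KO testis, and 25.6 percent and 22.1 percent in P40 INSL3-KI testis. NRF2 (Nfe2l2), the factor that drives many of these genes under oxidative stress, stood with its regulators and other targets on a list of 15, of which 12 rose and 2 fell in P23 INSL3-KO testis and 9 rose and 1 fell in P40 INSL3-KI testis with TMM, relative to a median of all genes that Sertoli cell scaling moved to -2.62 and -2.26. The list's median was 1.58 and 1.37. The one that fell in both was Osgin1, at 263.9, 266.8 and 253.3 CPM in P23 WT and 17.42, 15.25 and 16.44 CPM in INSL3-KO testis (-4.00 ± 0.06). In P8 gubernaculum 0 of 15 rose and 2 fell in INSL3-KI (all genes, 14.4 percent and 9.70 percent) and 1 rose and 4 fell in INSL3-KO (all genes, 15.5 percent and 15.2 percent). Nfe2l2 itself was at 38.95, 43.33 and 32.52 CPM in P8 WT and at 115.3, 118.1 and 119.6 CPM in INSL3-KO gubernaculum (1.62 ± 0.11), across tables.

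Of the 21 tested genes of glutathione synthesis and turnover, 7 rose and 6 fell in P23 INSL3-KO testis and 6 rose and 5 fell in P40 INSL3-KI testis with TMM. Dpep3, a dipeptidase, was at 510.6, 496.0 and 491.0 CPM in P23 WT and at 12.02, 10.2 and 11.01 CPM in INSL3-KO (-5.50 ± 0.07). In P8 INSL3-KI gubernaculum 5 of 22 rose and 0 fell (all genes, 14.4 percent and 9.70 percent). Slc7a11, the cystine importer that supplies cysteine for glutathione, was at 0.6166, 0 and 0.06523 CPM in WT and at 8.314, 17.94 and 13.38 CPM in INSL3-KI (5.85 ± 0.82), and Gclm, a subunit of the first synthetic enzyme, at 34.4, 30.37 and 33.27 against 74.32, 89.2 and 79.31 CPM (1.31 ± 0.11).

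In the thioredoxin system 7 of 18 rose and 7 fell in P23 INSL3-KO testis and 7 rose and 5 fell in P40 INSL3-KI testis with TMM. The sperm thioredoxin Txndc2 was at 636.1, 624.6 and 613.2 CPM in P23 WT and at 5.303, 4.469 and 4.121 CPM in INSL3-KO (-7.08 ± 0.08). Of 9 NADPH-supplying enzymes 6 rose and 2 fell in P23 INSL3-KO testis and 5 rose and 1 fell in P40 INSL3-KI testis with TMM, the last being G6pd2, at 62.52, 63.65 and 47.89 CPM in WT and 0.3156, 0 and 0.1344 CPM in INSL3-KI. Of 10 genes of selenoprotein synthesis and selenium transport, which Gpx1 to Gpx4 need, 3 rose and 4 fell in P23 INSL3-KO testis and 2 rose and 2 fell in P40 INSL3-KI testis with TMM. Sephs2, which makes the selenium donor, was at 192.1, 194.6 and 192.6 CPM in P23 WT and at 16.37, 19.98 and 17.84 CPM in INSL3-KO (-3.42 ± 0.07). Of the membrane-bound (MAPEG) and other transferases 6 of 10 rose and 3 fell in P23 INSL3-KO testis with TMM, and 3 of 10 rose in P8 INSL3-KI gubernaculum (all genes, 14.4 percent), among them Mgst1 (1.74 ± 0.16). Of peroxide-producing oxidases 7 of 12 rose and 2 fell in P23 INSL3-KO testis with TMM, and 4 of 14 rose in P8 INSL3-KI gubernaculum (all genes, 14.4 percent). For the MAPEG and oxidase lists, falls in gubernaculum and counts in P40 INSL3-KI testis are not given here. For the thioredoxin, NADPH and selenium lists, gubernaculum counts are not given here.

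Some members share sequence with other genes, so that reads may have been divided between them. Of all 100-base stretches of its transcripts, 80.6% of Gsta1, 46.9% of Gstp2, 28.4% of Gsta2, 25.2% of Gpx4 (with pseudogenes), 25.1% of Gstp1, 13.8% of Gstm3, 12.8% of Sod2 and 10.8% of Gstt3 also occur in another gene. Gstm5 overlaps a gene on the other strand in 13.9% of its exon bases and Prdx5 in 19.1%, and whether counting used the strand is not given in the sources used here. Of Gstm5, Gsto2 and Gstt4, 0 stretches were found elsewhere. The gene length implied by counts and FPKM differed between the tables for Sod2 (5897.2 bases in the first, 4032.5 in the second). For Gpx6 it was 1386.2 against 1145.3 bases. Differences of these genes across the tables may thus carry a difference in the stretch counted.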

How the data were processed

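RNA was extracted from testis and gubernaculum with TRIzol, and mRNA libraries were sequenced in paired-end mode on an Illumina NovaSeq by a commercial service. The submitters' processing notes name HISAT2 and the genome build GRCm38, and the read counter is not given in the sources used here. The authors deposited 2 tables with whole-number read counts per gene for each library and, beside them, FPKM values per gene (fragments scaled to gene length and library size). The first table holds 27 libraries and the second 12, and 0 sample columns were left unused. Library totals ran from 29861447 to 45260372 counts, which limits precision for genes with few counts.

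Genes were joined between the tables by Ensembl identifier. Counts were tested with edgeR 4.0.16 (quasi-likelihood test, TMM scaling, filterByExpr with a minimum of 10 counts and 15 in all) in R 4.3.3, using only the groups compared, and p-values were adjusted by Benjamini-Hochberg across every gene in the fit. Calls needed an adjusted p under 0.01 together with a change of at least 2-fold. The percentages of all genes refer to such calls and not to unadjusted p under 0.05. Of the 14 comparisons, 6 were made across the tables, where table and genotype cannot be told apart. FPKM was used for levels and CPM, from TMM-scaled library sizes, for differences. Folds against groups at or under 3 counts were computed against 3 counts per library. Promoter sequences were read from RefSeq tables. Python 3.11.15, pandas 2.3.3 and matplotlib 3.10.9 were used for tables and plots.

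The members and gene lists were chosen with earlier results of these data known. Members were named as up to 6 called per comparison with the largest change and a mean of at least 1 FPKM, with Cat, Sod1, Sod2, Sod3, Gpx1, Gpx3, Gpx4, Gpx5, Prdx4 and Prdx6 also open to naming where called, and up to 3 called genes per pathway list. Prdx6 was not called with TMM. With Sertoli cell scaling it was called at 1.86 in WT testis P40 against P8. It was called at -2.19 in P23 INSL3-KO and -2.10 in P40 INSL3-KI testis against WT. Others were named after their values were seen: Gstt2 and Gstt3 in P40 testis, Gsto2 and Gstt2 in P8 testis, and Gstz1 and Gstm7 in P23 gubernaculum. The scripts were checked on simulated data. Alternatives were DESeq2 1.42.0, no filter, library size alone, DESeq2 size factors in edgeR, all groups in one fit, scaling on 15 Sertoli cell genes (testis), limma 3.58.1 on log2(FPKM + 1), a replicate block, and leaving out each library. Correlations between same-numbered libraries ranged from -0.162 to 0.43, and in no comparison were all 3 above 0.1, so the numbers were not taken as pairs.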

Additional observations from a re-analysis of the deposited data

Results flagged for a closer look

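The INSL3-KI effect in testis differed between P40 and P8 by a test of the interaction (edgeR, 3 libraries in each of 4 groups) for the members below, each given as the P40 minus the P8 log2 change with TMM. It was 2.03 ± 0.25 for Cat, 2.26 ± 0.26 for Gpx1 and 2.75 ± 0.70 for Gpx3, whose call was lost without any of 5 libraries. It was 3.71 ± 0.40 for Gpx7, 3.05 ± 0.48 for Gpx8 and 6.29 ± 1.15 for Gstm3. It was -2.87 ± 0.44 for Gpx4, -3.44 ± 0.81 for Gstm5 and -5.11 ± 1.04 for Gsto2. The Gstm5 call was lost without P8 WT library 1 or 2 or P40 WT library 1 or 2. With Sertoli cell scaling the P40 change itself was below 0 for Cat, Gpx1, Gpx3, Gpx7 and Gpx8, while Gstm3 was at 2.63 and not called, and the interaction was not run with that scaling.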

How the results depend on the processing

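Scaling on Sertoli cell genes turned signs in testis. The member median became -0.90 in P23 INSL3-KO against WT, -1.04 in P40 INSL3-KI against WT and 0.59 in WT P40 against P8. In P23 INSL3-KO Gpx1 became -0.40, Cat -0.90 and Sod3 -1.02. In P40 INSL3-KI Gpx3 became -0.63, Gpx1 -0.78, Cat -0.78 and Sod3 -1.08, and with WT age Gpx1 became 0.19. This scaling gave 18 lower and 0 higher in P23 INSL3-KO, 18 and 0 in P40 INSL3-KI, 3 and 17 in WT P40 against P8, 5 and 0 in P23 INSL3-KI against WT and 4 lower in P23 INSL3-KI against INSL3-KO. Among all genes tested, in the same order, it gave 13126 lower and 82 higher, 12433 and 22, 1222 and 9520, 1547 and 67, and 115 and 7726.

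Among the counts of called members, DESeq2 gave 3 higher in P23 gubernaculum INSL3-KI against WT, 1 higher in P8 testis INSL3-KI against WT, 0 lower for the P8 testis libraries labelled INSL3-KO against WT and 2 lower for INSL3-KI against them, 1 lower in WT gubernaculum P23 against P8, 2 higher in WT gubernaculum against testis, and, for the INSL3-KI effect at the later minus the earlier age, 5 lower in gubernaculum and 8 lower in testis. DESeq2 size factors in edgeR gave 1 lower in P8 testis INSL3-KI against WT and 0 lower for the libraries labelled INSL3-KO. Library size alone gave 6 lower and 3 higher in P8 gubernaculum INSL3-KI against INSL3-KO, 1 and 0 lower in P8 testis INSL3-KI and the libraries labelled INSL3-KO against WT, and 0 higher in WT gubernaculum against testis. With all groups of a tissue in one fit, 12 were higher in P8 gubernaculum INSL3-KO against WT, 3 lower and 0 higher in INSL3-KI against INSL3-KO, 4 higher in P23 gubernaculum INSL3-KI, 4 lower in P8 testis INSL3-KI against the libraries labelled INSL3-KO, and 3 had a lower INSL3-KI effect at P23 than at P8 in gubernaculum. With all 13 groups in one fit 2 were higher in WT gubernaculum against testis. Limma gave 4 lower and 3 higher in P8 gubernaculum INSL3-KI against INSL3-KO, 1 lower in P8 testis INSL3-KI against WT, 0 lower for the libraries labelled INSL3-KO against WT and 0 lower for INSL3-KI against them, 5 lower in P23 testis INSL3-KI against WT, and 0 higher in WT gubernaculum against testis. Dropping the filter kept all 32 counts within 1.5 times. The cause of these changes was not tested.

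With the replicate block, 0 were lower and 0 higher in P23 gubernaculum INSL3-KI, 0 lower in P8 testis INSL3-KI and in the libraries labelled INSL3-KO against WT, 3 lower and 0 higher in P23 testis INSL3-KI against WT, and 4 higher in WT gubernaculum P23 against P8. The other 25 of 32 counts moved by less than 1.5 times, and 90 of 110 calls on named members stood.

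As each library in turn was left out, the counts ran from 0 to 1 lower in P8 gubernaculum INSL3-KI against WT, 0 to 1 higher against INSL3-KO, 0 to 1 lower and 0 to 3 higher in P23 gubernaculum INSL3-KI, and 3 to 10 higher in WT gubernaculum P23 against P8. In P8 testis they ran from 0 to 1 lower in INSL3-KI against WT, 0 to 1 lower and 0 to 1 higher for the libraries labelled INSL3-KO against WT, and 0 to 4 lower for INSL3-KI against them. In P23 testis they ran from 1 to 9 lower and 0 to 1 higher in INSL3-KI against WT and 13 to 24 lower against INSL3-KO. They ran from 0 to 2 higher in WT gubernaculum against testis, from 0 to 3 lower and 0 to 2 higher for the INSL3-KI effect by age in gubernaculum, and from 2 to 6 lower for that in testis. With 3 libraries per group, precision was low for members with few counts, and comparisons across the tables have no check that separates table from genotype.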
